A study of Mus musculus with 15 samples.

Results

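Promoters at which an acetylated and a trimethylated form of the same histone residue were both mapped numbered 891 of 20807 in islets of CBA mice (4.28%). A promoter was taken as the window of 1000 bp on either side of the start site of a protein-coding gene on chromosomes 1 to 19. It was counted when an H3K27Ac peak and an H3K27Me3 peak of the same diet overlapped each other by at least 1 bp and the shared stretch reached into the window. These 891 windows are called dual promoters here, whatever the cells or alleles that carried each mark. They rested on 841 separate stretches of the genome, since neighbouring genes could share a stretch. The promoters were chosen by the positions of the called peaks of both marks, so peak values are given as a description without a test. The label held in that every member had both peaks by construction, and nothing further about cells or alleles was measured.

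The islets came from male CBA mice put on their diets at 10 weeks of age. The methods give 9 weeks on the diets, and the study elsewhere gives 10 weeks and an age of 20 weeks for the islets used. The regular diet (RD) was standard chow, the high-fat diet (HFD) was a purified diet rich in fat, and the third diet (HFD-O304) was the same high-fat diet with 0.8 mg/g of O304, which the study names an AMPK activator. About 600 islets, picked by hand, went into each chromatin immunoprecipitation followed by sequencing (ChIP-seq), and no genetic modification is named for any group. Each mark had 2 replicates per diet. The authors merged them before peak calling, leaving 1 peak list per mark and diet. Replicate error is therefore unknown and differences between diets carry no test. Where 3 values follow each other they are in the order RD, HFD, HFD-O304.

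H3K27Ac, acetylation of lysine 27 of histone H3, is deposited by p300 and CBP at active promoters and enhancers. H3K27Me3, trimethylation of the same lysine, is deposited by Polycomb repressive complex 2 and marks silenced developmental genes, most often at CpG islands. A single lysine cannot carry both groups, but a nucleosome has a pair of H3 tails, chromosomes come in pairs, and an islet holds several cell types. Both peaks at a promoter can therefore arise from a nucleosome with unlike tails, from unlike alleles or from unlike cells. The peak lists cannot tell these apart, nor can they tell fewer marked cells from less mark per cell.

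Stretches under both peaks are shown for 6 dual promoters, to set sequence of named genes beside that of a promoter with folds near 8 (4931408C20Rik) and of the promoter with the highest folds (Gm10800). Each is the part of the shared stretch nearest its centre that lies outside annotated untranslated regions, read from GRCm38 in the direction of the gene, with CG dinucleotides in capitals. The stretches of Cbx8, Klf2, 4931408C20Rik and Gm10800 are those of RD, and the stretches of Slc16a1 and Aldh1a3 are those of HFD.
Cbx8, chr11:119041726-119041965, minus strand, upstream of the start site: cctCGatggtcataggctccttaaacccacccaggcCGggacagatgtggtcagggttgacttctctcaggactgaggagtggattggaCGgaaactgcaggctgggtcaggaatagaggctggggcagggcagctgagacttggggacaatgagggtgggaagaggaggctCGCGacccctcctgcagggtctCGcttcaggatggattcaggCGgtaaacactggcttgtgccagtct
Klf2, chr8:72319572-72319811, plus strand, coding exon: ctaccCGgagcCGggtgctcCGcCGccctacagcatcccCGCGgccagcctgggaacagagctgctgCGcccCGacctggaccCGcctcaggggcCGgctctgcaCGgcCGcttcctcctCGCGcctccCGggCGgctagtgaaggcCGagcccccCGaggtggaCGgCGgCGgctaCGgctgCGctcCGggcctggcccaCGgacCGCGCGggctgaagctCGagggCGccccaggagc
Slc16a1, chr3:104638829-104639068, plus strand, intron: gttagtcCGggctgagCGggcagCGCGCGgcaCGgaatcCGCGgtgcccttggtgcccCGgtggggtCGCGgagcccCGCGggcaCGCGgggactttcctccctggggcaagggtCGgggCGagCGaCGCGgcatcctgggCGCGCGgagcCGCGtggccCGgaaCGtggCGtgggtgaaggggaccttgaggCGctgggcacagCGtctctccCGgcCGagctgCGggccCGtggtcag
Aldh1a3, chr7:66427518-66427757, minus strand, upstream of the start site: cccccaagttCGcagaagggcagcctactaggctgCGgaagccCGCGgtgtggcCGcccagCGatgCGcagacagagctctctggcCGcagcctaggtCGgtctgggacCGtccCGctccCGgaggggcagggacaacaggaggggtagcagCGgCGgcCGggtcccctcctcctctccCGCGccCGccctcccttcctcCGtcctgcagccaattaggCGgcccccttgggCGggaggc
4931408C20Rik, chr1:26687115-26687354, minus strand, across a coding exon and an intron: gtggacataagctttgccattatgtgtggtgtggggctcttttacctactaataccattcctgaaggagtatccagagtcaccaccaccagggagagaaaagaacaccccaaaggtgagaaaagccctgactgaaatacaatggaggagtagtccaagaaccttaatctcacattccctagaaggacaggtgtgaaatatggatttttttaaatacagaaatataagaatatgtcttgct
Gm10800, chr2:98666666-98666905, minus strand, across a coding exon and an intron: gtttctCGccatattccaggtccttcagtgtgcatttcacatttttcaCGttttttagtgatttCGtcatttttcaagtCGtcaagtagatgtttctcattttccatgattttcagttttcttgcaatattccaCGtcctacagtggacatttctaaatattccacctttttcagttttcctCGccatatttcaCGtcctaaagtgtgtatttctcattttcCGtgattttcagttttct
All 6 runs are 240 bases long. Slc16a1 held 34 CG dinucleotides, Klf2 held 30 and Aldh1a3 held 21, while Cbx8 held 7 and Gm10800 held 8. The run of 4931408C20Rik held none. Gm10800 was 97.5% repeat-masked, against 0% for Cbx8, Klf2 and Slc16a1. The run of Slc16a1 lay 161 to 400 bp downstream of the start site. That of Aldh1a3 ended 1 bp before the start site.

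Both marks were called together at 364 promoters in RD (1.75% of all windows). The count was 598 under HFD (2.87%) and 487 under HFD-O304 (2.34%). Of the 891 dual promoters, 508 were dual in 1 diet, 208 in 2 diets and 175 in all 3 diets (0.841% of all windows). Dual promoters in HFD only were the most numerous set with 236, followed by all 3 diets with 175, HFD-O304 only with 155, HFD and HFD-O304 with 136, RD only with 117, RD and HFD with 51, and RD and HFD-O304 with 21. The order of the diets depended on the lists. When each list of a mark was cut to the same number of peaks, RD had 359 dual promoters, HFD 395 and HFD-O304 280, so that HFD-O304 then stood below RD. The ratio of HFD to RD was 1.64 as reported. It was 1.10 at equal list size, 1.16 when both peaks needed a −log10 q of at least 5, 1.89 without windows of mostly repeated sequence and 2.34 when each mark had a common lowest fold in the 3 lists.

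**Figure D1:**
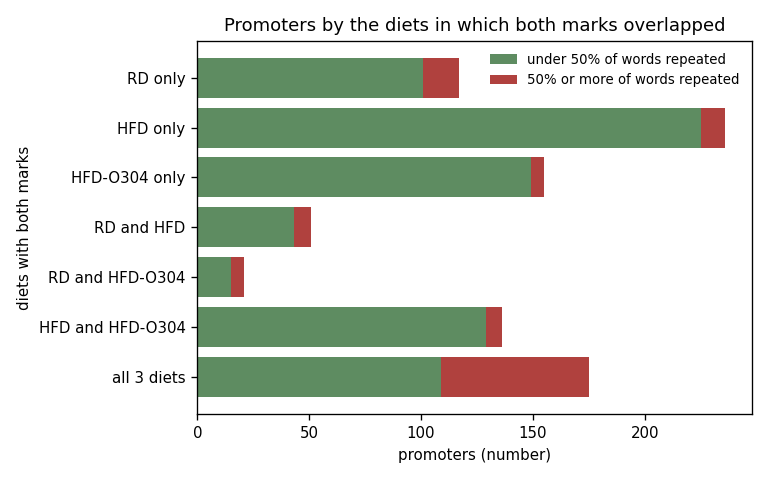
Number of dual promoters for each set of diets in which both marks overlapped. Bars are split by whether under 50% (green) or at least 50% (red) of the window's 32-base words occurred more than once in the reference; the red part is largest for promoters dual in all 3 diets, 66 of 175.

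The lists behind these counts differed in depth, in size and in their lowest fold. H3K27Ac lists rested on 83773042, 95218072 and 84694188 kept fragments, and H3K27Me3 lists on 74870300, 54166902 and 57324419. Windows with an H3K27Ac peak made up 46.2%, 52% and 51.5% of all, and windows with H3K27Me3 made up 6.97%, 8.87% and 9.3%. The lowest fold enrichment in an H3K27Ac list was 2.28 in RD and 2.17 in HFD, and in an H3K27Me3 list 2.53 in RD and 2.76 in HFD. The part of depth in the counts was not tested.

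Most dual promoters stood close to these limits, as did the lists as a whole. The median fold of a whole list was 2.78, 2.66 and 2.76 for H3K27Ac and 2.91, 3.17 and 3.08 for H3K27Me3. In windows of mostly unique sequence (defined below) the median H3K27Ac fold of the overlapping peaks was 2.61, 2.45 and 2.54. The median H3K27Me3 fold was 2.76, 3.21 and 3.13. Windows of the same kind with H3K27Ac alone had median H3K27Ac folds of 2.99, 3.14 and 3.14, and windows with H3K27Me3 alone had median H3K27Me3 folds of 2.79, 3.18 and 3.08. The median H3K27Ac fold was lower at dual promoters than with H3K27Ac alone in each diet, whereas the median H3K27Me3 fold lay close to that with H3K27Me3 alone. Both peaks reached a −log10 q of 5 at 75 of 364 dual promoters in RD, at 87 of 598 under HFD, and at 83 of 487 under HFD-O304.

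Just inside the rule, the shortest shared stretch was 65 bp at Fndc4 under RD, 13 bp at Sdk1 under HFD and 6 bp at Cux1 under HFD-O304. Just outside it were windows that held both peaks without overlap, numbering 16, 22 and 32. The smallest gap was 10 bp at Alkal1 in HFD and 21 bp at Edn3 in HFD-O304. The lowest −log10 q among the peaks used was 2.09 at Arhgef26 in RD, 2.09 at Myo16 in HFD and 2.12 at Zcchc24 in HFD-O304.

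Most dual promoters with a fold of at least 10 lay in sequence that occurs more than once in the reference. A window was called repeated when at least 50% of its 32-base words occurred more than once in the reference, and mostly unique otherwise. By this measure 120 of the 891 dual promoters (13.5%) were repeated, against 5.29% of all windows. The share was 37.7% among promoters dual in all 3 diets and 4.66% among those dual in HFD only. Short reads from such sequence often cannot be assigned to 1 copy, and the strain differs from the C57BL/6J reference. A fold of at least 10 was seen at 28 dual promoters, all of them dual in all 3 diets, and 24 of these were repeated.

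Gm10800 on chromosome 2 had H3K27Ac folds of 1431, 1331 and 1449.8, and H3K27Me3 folds of 3947, 4998 and 4889. Gm21738 on chromosome 14 had H3K27Ac folds of 633, 650 and 671 in the same order of diets. At Gm10715, Gm10717 and Gm10718, of a run of 9 dual promoters under a single stretch of 38408 bp on chromosome 9, the H3K27Ac folds were 414, 440 and 446 and the H3K27Me3 folds 616, 727 and 753. The 12 promoters with both folds above 400 were the same in every diet. Gm10800 and Gm21738 counted as mostly unique by the measure above, with 46.0% and 29.3% of words repeated, although 59.5% of the Gm10800 window was repeat-masked.

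**Figure D2:**
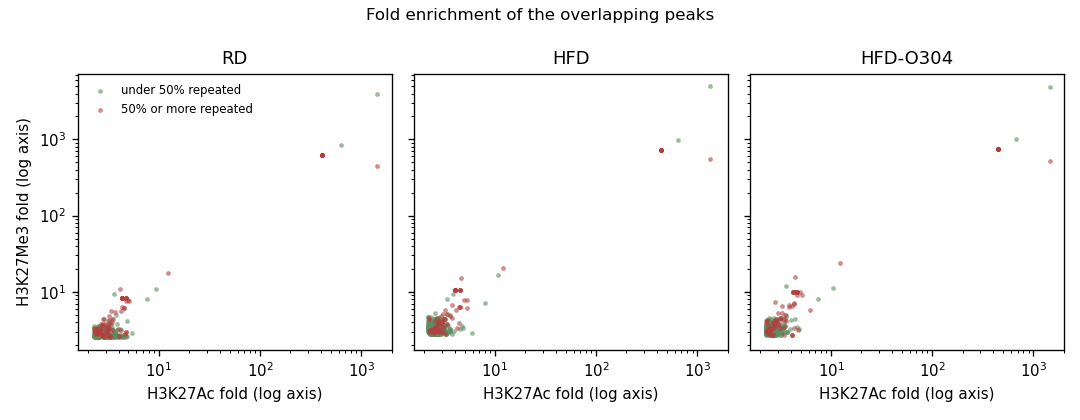
Fold enrichment of the overlapping H3K27Ac (horizontal) and H3K27Me3 (vertical) peaks at dual promoters of each diet, both axes logarithmic, 1 point per promoter, red for windows with at least 50% repeated words. Most points lie below a fold of 5 on both axes (554 of 598 in HFD), and 12 in each diet, led by Gm10800, lie above 400 on both.

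Among members of lower fold that were dual in all 3 diets, 7 of the 10 leaders were again repeated. The 10 were 4931408C20Rik, the double homeobox gene Duxf3 with its neighbours AW822073 and Gm4981, Gm45844, Gm13283 on chromosome 4, Zfp984, and 4930467E23Rik, Gm15319 and Gm21119 on chromosome 8. 4931408C20Rik had H3K27Ac folds of 7.68, 7.95 and 7.36 and H3K27Me3 folds of 8.04, 7.21 and 8.11. Duxf3 had H3K27Ac folds of 5.02, 5.30 and 5.15 and H3K27Me3 folds of 7.60, 7.81 and 9.16. HFD had the highest H3K27Ac fold at both genes, by a small margin. The longest shared stretches lay at Gm15319, Gm21119, Sfi1, 4930467E23Rik and Gm10715, and reached 124439 bp at Gm15319 in HFD.

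The other 771 dual promoters, of mostly unique sequence, were GC-rich. Their median GC content was 58.0%, against 51.4% for all windows. GC content is not part of the rule. Among all 891 members the median was 57.3%, and it was 51.3% for the 109 members left when both peaks needed a −log10 q of at least 5. In HFD the median was 58.4% for dual promoters, 54.5% with H3K27Ac alone, 56.0% with H3K27Me3 alone and 45.8% with neither. In RD dual promoters and those with H3K27Me3 alone were nearly the same, at 56.7% and 56.6%, and H3K27Ac alone had 54.7%. In HFD-O304 the medians were 58.2% for dual promoters, 55.6% with H3K27Me3 alone and 54.6% with H3K27Ac alone. The quartiles of the dual promoters in HFD were 54.8% and 61.3%, which overlapped the values of both singly marked kinds. A window was called CpG-rich when its GC content was at least 50% and its ratio of observed to expected CG dinucleotides at least 0.6. CpG-rich windows made up 57.1% of the 771 promoters and 30.8% of all windows. In RD their share was 58.6% of dual promoters, 56.6% of promoters with H3K27Ac alone and 46.8% of those with H3K27Me3 alone.

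Few dual promoters faced another start site head to head. Start sites with an opposite start site within 1000 bp upstream made up 6.97% of all windows. In windows of mostly unique sequence they made up 4.10%, 2.57% and 1.74% of dual promoters. The shares were 13.8%, 13.0% and 13.0% with H3K27Ac alone and 1.77%, 1.18% and 1.21% with H3K27Me3 alone. Genes of mostly unique dual promoters had a median length of 36.3 kb in HFD. The median was 24.5 kb with H3K27Ac alone and 24.4 kb with H3K27Me3 alone, again in mostly unique windows. With repeated windows included, the 3 medians were closer, at 25.7 kb for dual promoters, 24.4 kb with H3K27Ac alone and 23.2 kb with H3K27Me3 alone.

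The stretch under both peaks lay downstream of the start site. Its centre was downstream at 223 of 268, 415 of 506 and 323 of 402 mostly unique dual promoters. The median centre was 340 bp, 312 bp and 321 bp downstream. The median length was 381 bp, 436 bp and 419 bp. The H3K27Ac peak lay wholly inside the H3K27Me3 peak at 27.6%, 47.8% and 45.3% of these promoters. The converse, H3K27Me3 inside H3K27Ac, was seen at 32.1%, 14.2% and 15.9%. H3K27Me3 peaks at dual promoters had a median length of 652 bp, 1106 bp and 1007 bp.

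**Figure D3:**
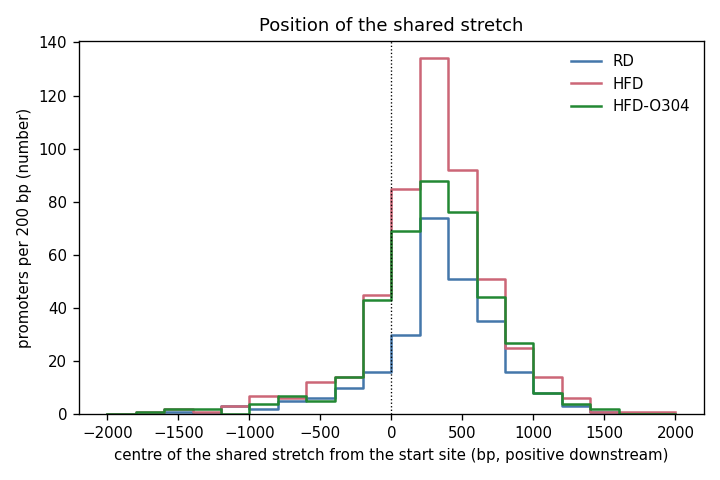
Distance from the start site to the centre of the shared stretch, positive downstream, counted in bins of 200 bp for mostly unique dual promoters of each diet. In all 3 diets the tallest bin is 200 to 400 bp downstream, with 74, 134 and 88 promoters in RD, HFD and HFD-O304; 7, 5 and 6 promoters beyond 2000 bp are not drawn.

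Most promoters that were dual in either RD or HFD but not in the other held 1 of the marks in the other diet. Both marks were called in HFD and not together in RD at 372 promoters (1.79% of all windows). In RD, 206 of them (55.4%, 95% Wilson interval 50.3% to 60.3%) had H3K27Me3 alone, 75 had H3K27Ac alone, 84 had neither and 7 had both without overlap. The mark called in HFD and not in RD was therefore most often H3K27Ac. Both marks were called in RD and not together in HFD at 138 promoters (0.663% of all windows), of which 106 (76.8%, interval 69.1% to 83.1%) had H3K27Ac alone in HFD. The mark called in RD and not in HFD was most often H3K27Me3. The intervals cover counting error only.

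Part of this pattern lay at the limits of the lists. Of the 206 promoters with H3K27Me3 in both diets and H3K27Ac called in HFD, 59 had an H3K27Ac fold in HFD under the lowest fold of the RD list. Of the 106 promoters with H3K27Ac in both diets and H3K27Me3 called in RD, 77 had an H3K27Me3 fold in RD under the lowest fold of the HFD list. With a common lowest fold for each mark, the share with H3K27Me3 alone in RD was 25.7% and the share with H3K27Ac alone in HFD was 50.9%. At equal list size the shares were 42.6% and 57.1%.

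**Figure D4:**
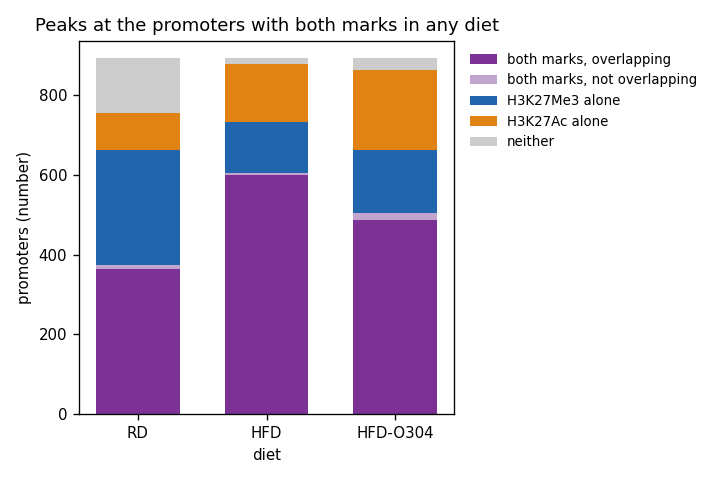
State of the 891 dual promoters in each diet, as stacked numbers of promoters. In RD 288 had H3K27Me3 alone and 136 neither mark, in HFD 127 and 13, and in HFD-O304 157 and 28. Members were chosen as dual in any diet, and 598 were dual in HFD, so the low counts in HFD follow in part from the rule.

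Of the 372 promoters dual in HFD and not in RD, 136 were also dual in HFD-O304 (36.6%, interval 31.8% to 41.6%) and 236 were not. The share was 22.5% at equal list size. Of the 138 dual in RD and not in HFD, 21 were dual in HFD-O304 (15.2%, interval 10.2% to 22.1%). Among the 287 dual in HFD and not in HFD-O304, H3K27Me3 alone was called in HFD-O304 at 137 and H3K27Ac alone at 112. These comparisons share the same 3 pairs of lists.

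Promoters were ranked within each set by the lower −log10 q of their 2 peaks, taken in the diet where it was highest. In the set dual in HFD only the leaders were Nr4a3, a nuclear receptor induced early by stimuli, with Gm13271 and Rex2. Nr4a3 had H3K27Ac folds of 3.16, 3.46 and 3.32. Its only H3K27Me3 peak was in HFD, with a fold of 3.53. The set of HFD and HFD-O304 had among its leaders Myo16 and Gm20481, the latter beside the Hsp70 genes. Myo16 had H3K27Me3 folds of 2.74, 3.96 and 3.79 in the 3 diets and H3K27Ac folds of 2.17 in HFD and 2.98 in HFD-O304, with none called in RD. Its H3K27Ac fold in HFD was under the lowest fold of the RD list, 2.28. The set of HFD-O304 only was led by Nfatc4, a calcineurin-regulated transcription factor, with Dtx4 and Zfp982. Nfatc4 had H3K27Ac folds of 2.52, 2.51 and 2.73, and in HFD its H3K27Me3 peak was present without touching the H3K27Ac peak.

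Promoters dual in RD only were led by Fam214b, Dynlt1f and Arhgap12. Fam214b had H3K27Ac folds of 3.26, 3.23 and 3.24 and an H3K27Me3 peak in RD alone with a fold of 3.38. Its acetylation was nearly the same in the 3 diets. In the set of RD and HFD the leaders were Itln1, Glp1r and Hist1h2ao. In the set of RD and HFD-O304 they were Naf1, Rbm46 and Lrrc7. Naf1, an assembly factor of H/ACA ribonucleoproteins, had H3K27Ac folds of 4.81, 5.57 and 4.83 and H3K27Me3 folds of 4.11 in RD and 3.26 in HFD-O304, with none called in HFD.

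Genes of beta cell biology were examined through lists chosen with earlier results of these data known, so their counts are read only as counts. Of 37 islet transcription factors with a window, 3 were dual in any diet (8.11%, against 4.28% of all windows). Nkx6-1, a factor of mature beta cells, had H3K27Ac folds of 3.80, 3.97 and 4.08, and an H3K27Me3 peak with a fold of 2.73 in HFD-O304 alone. That peak was weak (−log10 q 2.36). It lay under the lowest H3K27Me3 fold of the HFD list, 2.76, though above that of the RD list, 2.53. Its absence from the HFD list therefore does not show a difference between HFD and HFD-O304. Gata6, a factor of pancreas formation, was dual in HFD and HFD-O304. Of 27 hormone and secretion genes only Glp1r, the receptor of glucagon-like peptide 1, was dual (3.70%, near the 4.28% of all windows). It had H3K27Ac folds of 2.89, 3.01 and 3.07, and H3K27Me3 folds of 3.39 in RD and 3.02 in HFD with none called in HFD-O304.

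Disallowed genes are kept low in beta cells and widely used elsewhere. Of their 26 windows 9 were dual in any diet (34.6%, beside 4.28% of all windows). By diet 3, 7 and 5 were dual in RD, HFD and HFD-O304, beside 1.75%, 2.87% and 2.34% of all windows. Slc16a1, which encodes the lactate and pyruvate carrier MCT1, and Ndrg2 were dual in all 3 diets. Slc16a1 had H3K27Ac folds of 2.81, 2.83 and 3.04 and H3K27Me3 folds of 2.67, 2.86 and 2.99. Rest, a repressor of neuronal genes, had H3K27Ac folds of 2.54, 2.47 and 2.40 and an H3K27Me3 peak in HFD alone with a fold of 2.94. Yap1, a transcriptional coactivator of the Hippo pathway, likewise had H3K27Me3 in HFD alone, with a fold of 3.16. Acot7 and Igfbp4 were dual in HFD and HFD-O304, Lmo4 in HFD, Cxcl12 in HFD-O304 and Cd302 in RD. The H3K27Me3 fold of Cd302 in RD, 2.75, was under the lowest fold of the HFD list, 2.76. None of the 9 had both peaks at a −log10 q of 5 in the same diet.

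In the list of dedifferentiation and stress genes 4 of 18 were dual (22.2%, beside 4.28% of all windows). Aldh1a3, a retinaldehyde dehydrogenase known as a mark of failing beta cells, had H3K27Me3 folds of 2.70, 2.91 and 2.74. Its only H3K27Ac peak was in HFD, where the fold was 2.39 and the −log10 q 3.32. Vim, which encodes vimentin, had the same form, with H3K27Me3 folds of 2.92, 3.38 and 3.60 and an H3K27Ac fold of 2.31 in HFD. Mycl was acetylated in the 3 diets with folds of 2.36, 2.63 and 2.34 and had H3K27Me3 in HFD alone. Fev was dual in HFD-O304 only.

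Developmental signalling genes held the largest number of dual promoters among the lists, 23 of 93 (24.7%, beside 4.28% of all windows). By diet 2, 12 and 16 were dual, beside 1.75%, 2.87% and 2.34% of all windows. An H3K27Me3 peak, which a dual promoter needs, was held by 46, 61 and 60 of the 93. Over all windows 1450, 1846 and 1935 held that peak, and 364, 598 and 487 were dual. Among windows with an H3K27Me3 peak, the dual share was lower in this list in RD and HFD, and slightly higher in HFD-O304. In RD, 16 of the 23 had H3K27Me3 alone and 4 had neither mark. Fgfr3, a fibroblast growth factor receptor, was dual in all 3 diets with H3K27Ac folds of 2.37, 2.41 and 2.56. Notch3 and its effector family members Hes5 and Hey2 were dual in HFD and HFD-O304, as were the Wnt receptor Fzd1 and the retinaldehyde dehydrogenase Aldh1a2. The H3K27Ac fold of Aldh1a2 was 2.23 in HFD, under the lowest fold of the RD list (2.28), and 2.34 in HFD-O304. Notch3 held an H3K27Me3 peak in all 3 diets, with a fold of 2.88 in RD, and had H3K27Ac folds of 2.48 in HFD and 2.75 in HFD-O304. Wnt11 and Ihh were dual in HFD only, and Ptch1, the Hedgehog receptor, in HFD-O304 only. The H3K27Ac fold of Ihh in HFD, 2.20, was under the lowest fold of the RD list (2.28) and of the HFD-O304 list (2.25). At equal list size 9 of the 93 were dual, when 653 of all 20807 windows were, and with a −log10 q of 5 none was.

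Transcription factors of other tissues were mostly trimethylated, with an H3K27Me3 peak at 86, 106 and 103 of 113 windows, beside 6.97%, 8.87% and 9.3% of all windows. Of these 113, 10 were dual in any diet (8.85%, beside 4.28% of all windows). By diet 1, 5 and 7 were dual. A dual promoter needs an H3K27Me3 peak, which 1450, 1846 and 1935 of all windows held, and 364, 598 and 487 were dual. Among windows with an H3K27Me3 peak, the dual share was therefore lower in this list than over all windows in each diet. Sim1 was dual in all 3 diets with H3K27Ac folds of 2.56, 2.66 and 2.61, Sox7 in HFD and HFD-O304, Emx1 and Pitx3 in HFD only, and Shox2, Pitx1, Zic5, Irx5 and Lmx1a in HFD-O304 only. The H3K27Ac fold of Sox7 was 2.19 in HFD, under the lowest fold of the RD list (2.28), and 2.34 in HFD-O304. None of the 39 Hox genes was dual, beside 4.28% of all windows. An H3K27Me3 peak was held by 32, 35 and 37 of them, and an H3K27Ac peak by 0, 0 and 0. In the Polycomb list 1 of 26 windows was dual (3.85%, near the 4.28% of all windows). It was that of Cbx8, a chromodomain subunit of Polycomb repressive complex 1. Its stretch, part of which is shown above, was centred 724 to 877 bp upstream of the start site, with H3K27Ac folds of 3.07, 3.13 and 3.15 and H3K27Me3 folds of 3.05, 3.35 and 3.34. Of 22 immediate early genes 3 were dual in any diet (13.6%, beside 4.28% of all windows). Klf2 was dual in all 3 diets, with H3K27Ac folds of 3.01, 3.16 and 3.43 and H3K27Me3 folds of 2.89, 3.52 and 3.64. Nr4a3 and Fosl1 were dual in HFD only. The H3K27Ac fold of Fosl1 in HFD, 2.27, was under the lowest fold of the RD list, 2.28. In the cell cycle list 2 of 18 windows were dual (11.1%, beside 4.28% of all windows), Cdk6 and Cdkn1c, both in HFD-O304 only.

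Of 79 windows of markers of other cell types that an islet preparation can hold, 4 were dual in any diet (5.06%, near the 4.28% of all windows). No acinar (14 windows), ductal (11) or leukocyte (15) marker was dual. Among endothelial markers Flt1 was dual in RD and Erg in HFD-O304, among mesenchymal markers Vim in HFD, and among neural and glial markers Ngfr in HFD. The H3K27Ac fold of Ngfr in HFD, 2.23, was under the lowest fold of the RD list (2.28) and of the HFD-O304 list (2.25). H3K27Ac was called at 1, 0 and 0 of 14 acinar, 4, 5 and 6 of 11 ductal and 2, 0 and 1 of 14 endothelial marker windows. It was called at 0, 1 and 1 of 15 leukocyte, 0, 1 and 0 of 16 mesenchymal and 4, 5 and 4 of 9 neural and glial marker windows. Of 27 hormone and secretion genes 13, 15 and 15 held an H3K27Ac peak. For all these counts, the share of all windows with an H3K27Ac peak was 46.2%, 52% and 51.5%. None of 18 housekeeping windows was dual, and 17, 18 and 17 of them held an H3K27Ac peak. The part of minor cell types in the dual promoters was not tested.

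Symbols sharing their leading letters were tallied for all 156 such groups with at least 15 windows, after the members were known, and the genes named here were chosen after their values were seen. The median group had 2.07% of its windows dual, and 72 groups had none. Semaphorin genes, which encode axon guidance cues, had the highest share with 8 of 20, none of them repeated. Sema5b and Sema6a were dual in all 3 diets, and Sema5b had H3K27Ac folds of 2.59, 2.78 and 2.81 and H3K27Me3 folds of 3.43, 4.54 and 3.97. Histone genes followed with 19 of 67 (28.4%, beside 4.28% of all windows), none of them dual in all 3 diets. Several histone windows shared a stretch, as at Hist1h2bf, Hist1h2ad and Hist1h3d, and 8 of the 19 were repeated.

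**Figure D5:**
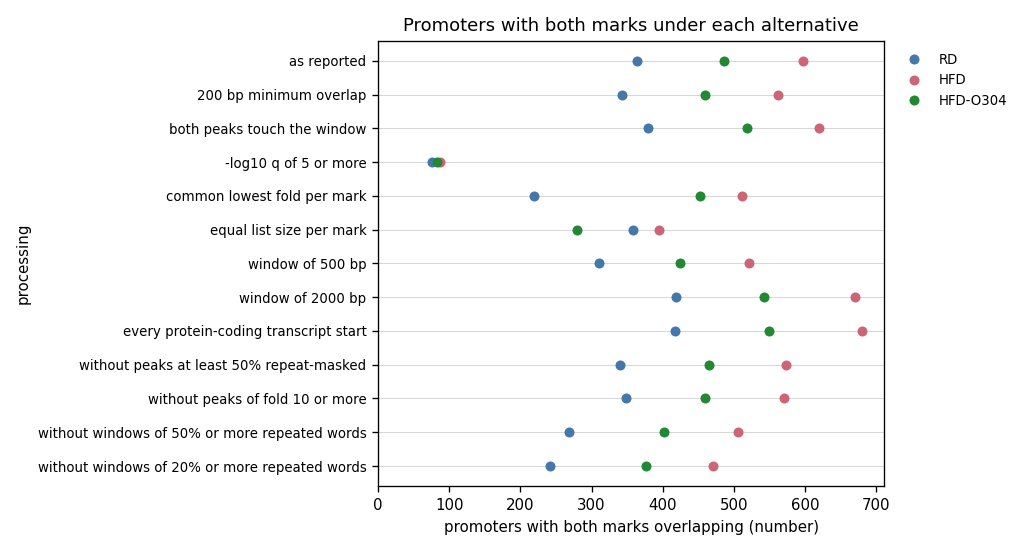
Number of dual promoters in RD, HFD and HFD-O304 (points) as reported and under each other processing (rows). HFD lies highest in every row, and HFD-O304 lies above RD in every row except at equal list size, where it is 280 against 359.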

How the data were processed

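H3K27Ac and H3K27Me3 ChIP-seq was done by the authors on 12 samples, with 2 replicates per mark and diet, beside 3 input samples that were not used here. The authors mapped paired-end reads to GRCm38 with bowtie2, merged replicates and called broad peaks with MACS 2.1.2 without control or local background. Per the file headers the q cutoff was 0.01 and 1 fragment was kept per position. The deposited coverage signal (pileup), the deposited −log10 p and −log10 q, and the fold enrichment (ratio over a uniform background) given by the authors describe each peak. Of these, fold and −log10 q were used.

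Windows came from GENCODE mouse release 21. Overlaps, GC content and repeated 32-base words were computed in Python 3.11 on the reference sequence, and the overlap code was tested on simulated data. Members and gene lists were chosen with earlier results of these data known. The 50% limit on repeated words, and 20% as an alternative, were set after the data were seen. Named genes were the 10 promoters dual in all 3 diets with the highest median of the lower −log10 q (folds under 10, under 50% repeat-masked), the top 5 of the others, the top 3 of each other set (by the highest lower −log10 q in a diet where dual), the 5 longest stretches and members of the lists. Sequences, GC and repeats are those of the C57BL/6J reference, not of CBA. Intervals are 95% Wilson intervals. A few named members are not reported here.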

Additional observations from a re-analysis of the deposited data

How the results depend on the processing

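The counts by diet and set, the median GC, 3 shares of promoters by state and 2 gene lists were recomputed under 10 other settings and 2 more added after the data were seen, and other results were not. Of these, 77 of 96 values of the 7 counts and the median GC stayed within 1.5 times the reported count or the interval of the median. Requiring a −log10 q of 5 left 109 dual promoters in any diet, 75 in RD, 87 in HFD, 83 in HFD-O304, 62 in all 3 diets, 22 in HFD and not RD and 10 in RD and not HFD, with a median GC of 51.3%. At equal list size HFD had 395, HFD-O304 280 and HFD and not RD 204. A common lowest fold for each mark left 219 in RD and 57 in RD and not HFD. With every transcript start the median GC was 56.6%. Without windows of at least 50% repeated words 109 were dual in all 3 diets and the median GC was 58.0%, and at 20% there were 242 in RD, 91 in all 3 diets and a median of 58.2%. Stricter settings keep fewer peaks or windows by construction, and the cause was not tested further. No paired analysis was possible because each peak list was made from both replicates joined, and leaving out 1 of them could not be tried either. Depth limits the lowest fold that a list can call, so a missing peak is not a missing mark.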
